A study of Rattus norvegicus with 4 samples.

Results

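Krüppel-like factors (KLFs) are zinc-finger transcription factors that bind CACCC boxes and related GC-rich sites in promoters, and they act as activators or repressors depending on the partner that their N-terminal part recruits. Several of them take part in oligodendrocyte maturation. Klf9 is induced by thyroid hormone and promotes differentiation, Klf13 is its close relative, and Klf6 links gp130 cytokine signals to the generation of myelinating cells. This report describes 10 KLF genes, Klf2, Klf3, Klf4, Klf5, Klf6, Klf7, Klf9, Klf10, Klf13 and Klf15, in rat oligodendrocyte precursor cells (OPCs) after GPR17 silencing. The members were all non-control probes whose RefSeq accession belongs to one of these genes. Their number was 13 probes of 9 genes, out of 45598 non-control probes on the array, and no probe could be matched to Klf7.

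OPCs were taken from the cortices of rats at postnatal day 2, which the study pooled, and grown with PDGF and bFGF for proliferation. They were then switched to differentiating medium with thyroid hormone (T3) and transfected at once. Control OPCs (siNEG) received a non-targeting RNA pool and GPR17-silenced OPCs (siGPR17) a pool of siRNAs against Gpr17, each at 50 nM, and RNA was taken 48 h later, at day in differentiation 2 (DID 2). There were 2 siNEG and 2 siGPR17 samples, each on its own one-colour Agilent array. The submitters call them independent without naming separate animals or cultures, so p-values measure the spread between these samples, which may be technical. GPR17 is a G protein-coupled receptor found on immature oligodendrocytes.

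The values are spot intensities after background correction by the scanner software, and each array was set here to its 75th percentile, which lay between 564.9 and 624.1 intensity units. "Normalised signal" means this scaled intensity, and a log2 fold change is siGPR17 against siNEG on the log2 scale of it. Of all probes, 28016 stood well above background in 2 or more samples and were tested with limma, with Benjamini-Hochberg adjustment over all of them. The thresholds were those of the study's methods, a 1.5-fold difference together with an adjusted p under 0.07. The samples shared 1 slide and 1 scan. The siNEG arrays filled one column of the slide and the siGPR17 arrays another, so that column and treatment cannot be told apart. Gpr17 itself had normalised signals of 1107 and 1113 on the siNEG arrays and of 652.3 and 639.4 on the siGPR17 arrays, which is -0.78 ± 0.085 as log2 fold change ± standard error (adjusted p = 0.209 from limma). It was lower on both arrays of silenced cells, in the direction of the labels. The precursor and lineage markers Pdgfra, Cspg4, Sox10, Olig1, Olig2 and Ptprz1 and the oligodendrocyte markers Mbp, Mog, Mag, Cnp and Myrf were well above background on all arrays. Sox10, Olig1 and Olig2 mark the lineage rather than the precursor stage. Of these 6 precursor and lineage markers 6 had a log2 fold change below 0, against 48.0% of all genes. Their median was -0.19, with Cspg4 lowest at -0.48 and Sox10 at only -0.016. Under spike-in scaling, and also without siNEG replicate 2, 4 were below 0 and Sox10 and Olig1 lay above 0. Of 6 oligodendrocyte markers 4 were below 0, with Mog at -0.67 and Mbp at 0.32. Mog passed both thresholds with limma's trend and robust option and after normexp background correction, as 1.5% and 0.864% of all tested probes did. Endothelial and mural markers were sparse: of 8, only Cdh5, Kdr and Tek could be tested, and Pecam1, Flt1, Cldn5, Pdgfrb and Rgs5 could not.

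KLF signals differed little between the groups at DID 2. Klf10 had 1.31-fold less signal in GPR17-silenced than in control OPCs, one of 3 Klf5 probes had 1.55-fold less, and the other 10 tested probes differed by less than 0.2 on the log2 scale. The Klf2 probe did not rise clearly above background in any sample. None of the 12 tested KLF probes passed both thresholds in limma, where 1 of all 28016 tested probes did (0.00357%), while 0 of 12 did so by the methods' t-test (0.0% of all probes), by limma's trend and robust option (1.5%) or after normexp background correction (0.864%). Without adjustment, 2 of the 12 had a p under 0.05 in limma, both lower. Over all tested probes that share was 16.7%, with 7.58% higher and 9.12% lower, so the KLF count equals the background. A fold of 1.5 or more, whatever the p, was seen in 1 of 12, the Klf5 probe, against 6.64% of all probes (3.06% higher and 3.58% lower). The median log2 fold change of the 12 probes was -0.01, against 0.01 over all tested probes, and 5 of the 12 lay above 0, against 51.6% of all (48.4% below). When the arrays were scaled on their spike-in probes instead, which moved the median of all tested probes to 0.14, Klf9, Klf4, Klf3 A_42_P573441 and Klf5 A_44_P1369156 lay above 0 as well. Of 3 KLF probes with an unadjusted p under 0.05 in limma under that scaling, 2 were higher, Klf15 and Klf6 A_44_P490484, and 1 was lower, Klf5 A_42_P475623.

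**Figure D1:**
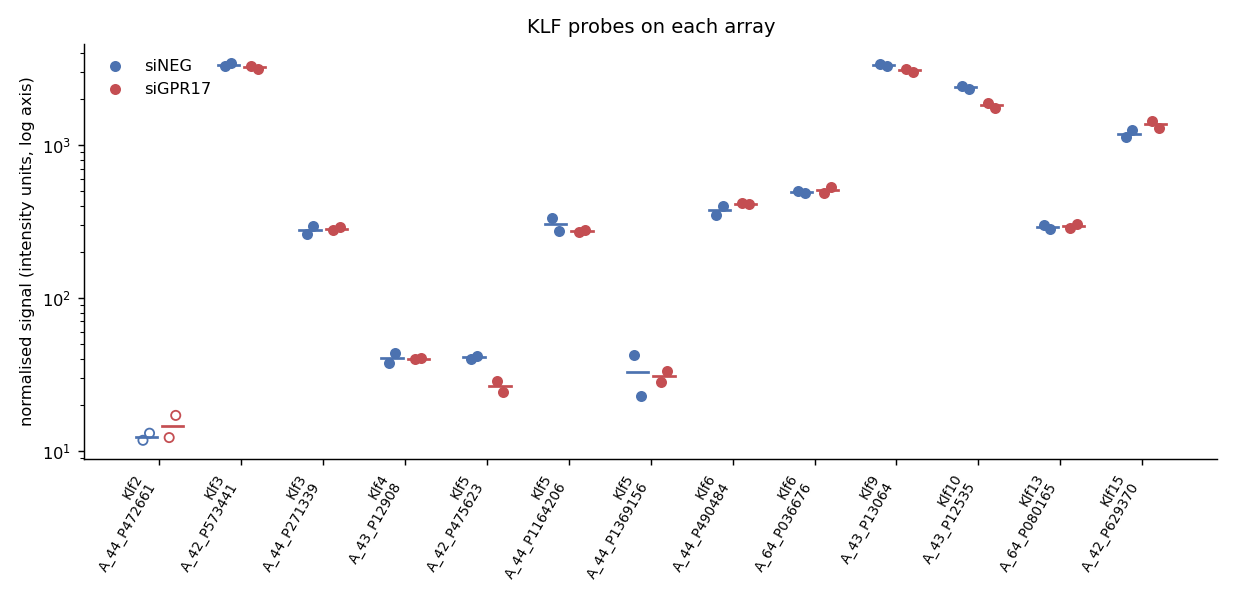
Normalised signal (intensity units, log axis) of the 13 KLF probes on the 2 siNEG arrays (blue) and the 2 siGPR17 arrays (red), with a bar at each group's mean and open circles for the Klf2 probe, which was not well above background. Only Klf10 and the Klf5 probe A_42_P475623 show groups that are clearly set apart, and levels of different probes are not comparable.

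Klf10 is the TGF-beta inducible early gene, a repressor that TGF-beta switches on within the first hours of a response. Its probe, A_43_P12535, had signals of 2449 and 2315 on the siNEG arrays and of 1893 and 1738 on the siGPR17 arrays. Both silenced samples lay below both controls, and the gap was wider than the distance between replicates. The log2 fold change was -0.39 ± 0.098 (in limma, unadjusted p = 0.0151 and adjusted p = 0.232), with a 95% interval from -0.66 to -0.12. The probe is printed on the array as 2 spots. One spot gave 2365 and 2411 in siNEG and 1841 and 1704 in siGPR17 OPCs, and the other 2536 and 2223 against 1947 and 1773. Both spots separated the groups, so the difference does not rest on a single spot. Among arrays in the same row of the slide, the siGPR17 value was lower than the siNEG value by similar amounts, with differences of -0.37 and -0.41. With limma's trend and robust option the adjusted p was 0.0626, which 3.52% of all probes also brought under 0.07, while the change stayed below 1.5-fold. It ranged up to 0.763 over the other alternatives, and the log2 change lay between -0.45 and -0.27. Without siGPR17 replicate 1, without siGPR17 replicate 2 or under spike-in scaling, the unadjusted p was no longer under 0.05.

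The named genes whose pattern over the 4 arrays was most like that of Klf10, among 10965 genes well above background on every array, were Cxcl16, Macir and Jakmip3. Likeness was measured as the root mean square difference of log2 values after centring each gene on its own mean. It was 0.00653 for Cxcl16, 0.0115 for Macir and 0.0155 for Jakmip3. Cxcl16, a membrane-bound chemokine, had signals of 119.9 and 114.7 in siNEG and of 93.3 and 86.0 in siGPR17 OPCs. With 4 arrays many genes share such a pattern, and 84 genes lay within 0.05 of Klf10.

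Klf5 is an activator known from proliferating epithelial and smooth muscle cells. The study had placed it among genes linked to lipid synthesis, a choice made on these same arrays, and the sources used here do not state which of its probes that rested on. Its 3 probes all carry the accession NM_053394, and they did not give the same picture. The brightest, A_44_P1164206, had signals of 333.7 and 272.3 in siNEG and of 270.8 and 276.2 in siGPR17 OPCs. One control array lay between the silenced ones, so the groups overlapped. Its log2 fold change was -0.14 ± 0.13 (limma, adjusted p = 0.619). Without siNEG replicate 1 it was 0.0061, and without siNEG replicate 2 it was -0.29. The dimmer probe A_42_P475623 had 39.9 and 41.7 in siNEG and 28.5 and 24.4 in siGPR17 OPCs. Here both silenced samples were lower, with a log2 fold change of -0.63 ± 0.12 (limma, adjusted p = 0.210), with a 95% interval from -0.95 to -0.31. With limma's trend and robust option its standard error rose to 0.24, so the width of this interval depends on that choice. The unadjusted p stayed under 0.05 with that option. The third probe, A_44_P1369156, had 42.3 and 22.6 in siNEG and 28.0 and 33.4 in siGPR17 OPCs. Both silenced samples lay inside the range of the controls, and its log2 fold change was -0.02 ± 0.34. Leaving out siNEG replicate 2 gave -0.47, and leaving out siNEG replicate 1 gave 0.43.

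Both dim Klf5 probes were close to their local background: the raw spot median was between 1.33 and 1.94 times the background median for A_42_P475623 and between 1.29 and 1.51 times for A_44_P1369156. For the brightest probe it was between 5.58 and 7.08 times. With normexp background correction the change of A_42_P475623 shrank from -0.63 to -0.18. The offset of 50 added there is larger than this probe's signals and draws changes of dim probes toward 0. The shrinkage therefore does not test the change. Set against the brightest probe within each array, A_42_P475623 had log2 ratios of -3.06 and -2.71 in siNEG and of -3.25 and -3.50 in siGPR17 OPCs. These ratios were lower on both silenced arrays, by -0.49 on average, with an exact two-sided permutation p of 0.333, the smallest that 2 against 2 arrays can give. Against the third probe the ratios were -0.08 and 0.88 in siNEG and 0.02 and -0.45 in siGPR17 OPCs, which overlapped (exact two-sided permutation p = 0.667). Which probe follows the Klf5 transcript best was not tested.

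**Figure D2:**
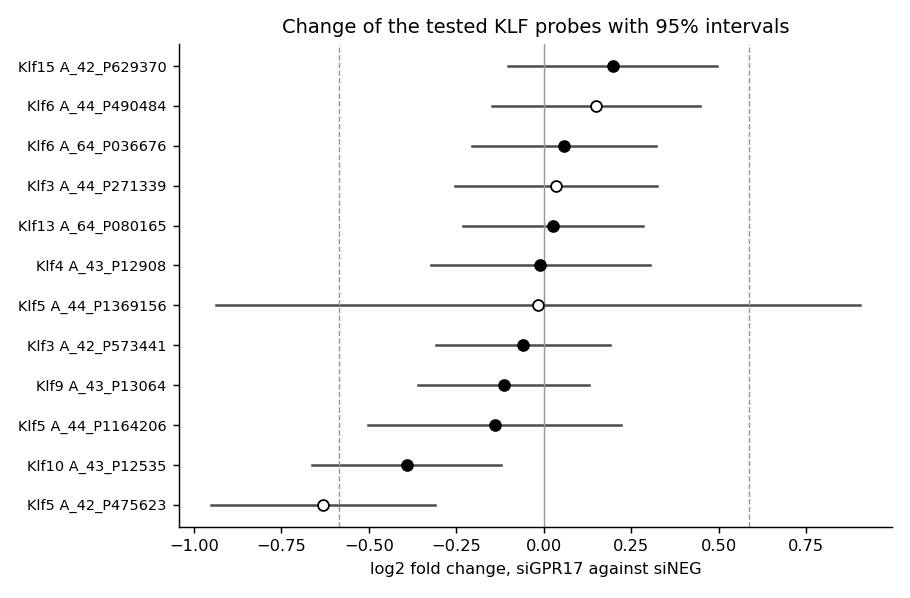
Log2 fold change of the 12 tested KLF probes, siGPR17 against siNEG (points, filled for the brightest tested probe of a gene), with the 95% interval from limma (lines) and the fold change of 1.5 marked on both sides (dashed). The intervals of Klf10 and of the Klf5 probe A_42_P475623 leave out 0, and 9 of the 12 intervals stay inside the dashed lines.

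Of the 12 intervals, 9 lay wholly within a fold change of 1.5 in either direction. These were both probes of Klf3, both of Klf6, the brightest of Klf5, and the probes of Klf4, Klf9, Klf13 and Klf15. On these 9 probes a 1.5-fold change in signal was outside the 95% interval of the difference, although smaller changes were not. The Klf4 probe was dim, between 1.51 and 1.62 times the local background. Its standard error rose from 0.11 to 0.22 with the trend and robust option, so its interval depends on that choice. The statement on the 9 probes does not hold for Klf5 as a gene, since the intervals of its other probes both reached past 1.5-fold. The interval of the Klf5 probe A_44_P1369156, from -0.94 to 0.90, reached past 1.5-fold on both sides.

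Klf9 is induced by T3 and by glucocorticoids and Klf15 by glucocorticoids, and Klf13 is the nearest relative of Klf9. Klf9 and Klf13 repress through the Sin3A complex, and Klf15 controls genes of glucose and amino acid use. Klf9 had signals of 3386 and 3288 in siNEG and of 3165 and 3001 in siGPR17 OPCs. Both silenced samples lay below both controls by a small margin, with a log2 fold change of -0.11 (95% interval from -0.36 to 0.13, adjusted p = 0.551 from limma). Its sign turned under spike-in scaling, where it was 0.012. Klf13 had 298.3 and 282.3 in siNEG and 286.4 and 305.0 in siGPR17 OPCs. Its groups overlapped, and the log2 fold change was 0.03 (95% interval from -0.23 to 0.28). It was slightly below 0 without siNEG replicate 2 or without siGPR17 replicate 2. Klf15 had 1129 and 1249 in siNEG and 1427 and 1298 in siGPR17 OPCs. Both silenced samples lay above both controls, with a log2 fold change of 0.20 (95% interval from -0.10 to 0.49, adjusted p = 0.426 from limma), and this was the highest value among the 12 probes. Its sign held under all alternatives, between 0.12 and 0.32. Within the rows of the slide the difference of Klf15 was 0.34 and 0.05.

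The promoter windows of Klf5, Klf9 and Klf15 are shown here as examples from the 5 member windows that hold the family's own binding motif. Those of Klf3, with 4 sites, and Klf7, with 2, are not shown. Each runs from 250 bases before to 50 after the annotated start in RefSeq, build GRCr8, and is written 5′ to 3′ on the strand of the gene. Capitals mark CACCC or its reverse complement GGGTG. The windows are chr15:82471831-82472130 on the plus strand for Klf5, chr1:230126396-230126695 on the plus strand for Klf9 and chr4:124522765-124523064 on the plus strand for Klf15.
Klf5: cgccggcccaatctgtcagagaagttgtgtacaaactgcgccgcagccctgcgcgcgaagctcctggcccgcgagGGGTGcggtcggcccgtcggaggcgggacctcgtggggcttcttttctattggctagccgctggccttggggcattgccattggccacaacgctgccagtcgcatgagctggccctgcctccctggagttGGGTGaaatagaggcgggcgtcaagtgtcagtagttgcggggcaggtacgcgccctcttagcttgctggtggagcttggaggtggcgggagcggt
Klf9: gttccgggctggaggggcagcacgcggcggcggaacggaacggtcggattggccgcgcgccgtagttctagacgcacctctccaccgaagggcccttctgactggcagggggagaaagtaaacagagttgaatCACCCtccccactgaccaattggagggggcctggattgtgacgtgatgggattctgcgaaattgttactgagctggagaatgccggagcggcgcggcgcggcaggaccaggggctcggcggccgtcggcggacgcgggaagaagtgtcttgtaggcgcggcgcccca
Klf15: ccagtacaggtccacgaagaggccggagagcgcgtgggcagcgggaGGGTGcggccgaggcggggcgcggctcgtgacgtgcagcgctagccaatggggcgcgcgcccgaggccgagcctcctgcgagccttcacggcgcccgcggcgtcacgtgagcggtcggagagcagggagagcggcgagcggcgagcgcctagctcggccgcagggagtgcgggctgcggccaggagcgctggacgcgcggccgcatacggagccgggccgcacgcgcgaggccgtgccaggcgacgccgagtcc

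In these windows CACCC, searched on both strands, occurred 2 times for Klf5 and 1 time each for Klf9 and Klf15. Of the 7 members with a window in the table, 5 held it, against 54.9% of all 33469 windows of the same length. The GC box GGGCGG, searched on both strands, was in 3 of the 7 and in 33.1% of all windows. The share of G and C was 65.3% for Klf5, 65.3% for Klf9 and 77.3% for Klf15. A match of these letters is a description of the sequence, and no binding was measured here.

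Klf6, the member tied to gp130 signals in oligodendrocytes, was measured by a pair of probes. The brighter, A_64_P036676, had signals of 497.2 and 483.4 in siNEG and of 487.7 and 533.5 in siGPR17 OPCs. Its groups overlapped, with a log2 fold change of 0.06 (95% interval from -0.21 to 0.32). The other, A_44_P490484, had 348.9 and 399.9 in siNEG and 417.7 and 410.0 in siGPR17 OPCs. Both silenced samples were above both controls by a margin smaller than the distance between the controls, and the log2 fold change was 0.15 (95% interval from -0.15 to 0.45, adjusted p = 0.528 from limma). Klf3, a repressor that works through CtBP proteins, gave values close to 0 on both probes. The brighter, A_42_P573441, had 3266 and 3449 in siNEG and 3293 and 3148 in siGPR17 OPCs, which gives a log2 fold change of -0.06 (95% interval from -0.31 to 0.19). The dimmer, A_44_P271339, had 261.2 and 293.7 in siNEG and 276.9 and 290.9 in siGPR17 OPCs, which gives a log2 fold change of 0.04 (95% interval from -0.25 to 0.32). The groups overlapped on both probes.

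Klf2 and Klf4 are close relatives best known from the endothelium, and Klf4 also as a reprogramming factor. Klf4 was dim, with signals of 37.2 and 43.4 in siNEG and of 39.5 and 40.3 in siGPR17 OPCs. The silenced samples lay within the range of the controls, and the log2 fold change was -0.0099 (95% interval from -0.32 to 0.30). Its raw spot median was only between 1.51 and 1.62 times the local background. Klf2 had signals of 11.7, 13.0, 12.2 and 17.0 on the siNEG and siGPR17 arrays in turn, not well above background on any of them, and no fold is given. In cells of mixed origin, fewer cells of a type and less RNA per cell cannot be told apart. The summed signal of the 3 tested endothelial markers, most of it from Kdr, was from 305.5 to 336.3 in siNEG and from 478.7 to 487.1 in siGPR17 OPCs, with both silenced samples above both controls. Of all single tested probes, 27.4% lay that way too. Pecam1, Flt1, Cldn5, Pdgfrb and Rgs5 could not be tested and are not in the sum. Kdr was at 0.68 and Tek at 0.51, both with an unadjusted p under 0.05 in limma, and Cdh5 was at 0.33. Over all genes by their brightest probe, 7.43% were higher and 8.73% lower with an unadjusted p under 0.05 in limma. Kdr passed both thresholds with the trend and robust option, as did 1.5% of all tested probes. Of 7 tested microglial markers 7 were below 0, with a median of -0.20, but without siNEG replicate 1 only 3 were, with a median of 0.06. Aif1 and P2ry12 had an unadjusted p under 0.05 in limma, and the summed microglial signal, most of it from Cx3cr1, overlapped between the groups, from 1888 to 3429 in siNEG and from 1992 to 2498 in siGPR17 OPCs. Of 6 neuronal markers 6 were below 0, with a median of -0.19, Syt1 at only -0.0059 and summed signals from 6792 to 8094 in siNEG and from 6360 to 6622 in siGPR17 OPCs. Under spike-in scaling 4 of the 6 were below 0. Of 6 astrocyte markers 3 were below 0, with Aqp4 lowest at -1.35 and Gfap at -0.61. These 2 passed both thresholds with the trend and robust option. The summed astrocyte signal was from 2877 to 3134 in siNEG and from 3741 to 3857 in siGPR17 OPCs. Most of that sum came from S100b, which was at 0.50, so it does not describe Aqp4 and Gfap. The part of these cells in the lower signals of Klf10 and Klf5 was not tested.

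For 5 of the 12 probes both silenced samples lay on one side of both controls, lower for Klf10, Klf9 and the Klf5 probe A_42_P475623 and higher for Klf15 and the Klf6 probe A_44_P490484. Over all tested probes the groups were separate for 52.6%, 27.4% higher and 25.2% lower. Counted once per gene by the brightest tested probe, 3 of 8 KLF genes lay above 0 and 5 below, against 52.0% above over all genes. Only Klf10 of the 8 had an unadjusted p under 0.05 in limma, against 16.2% of the 11656 genes with a tested probe.

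**Figure D3:**
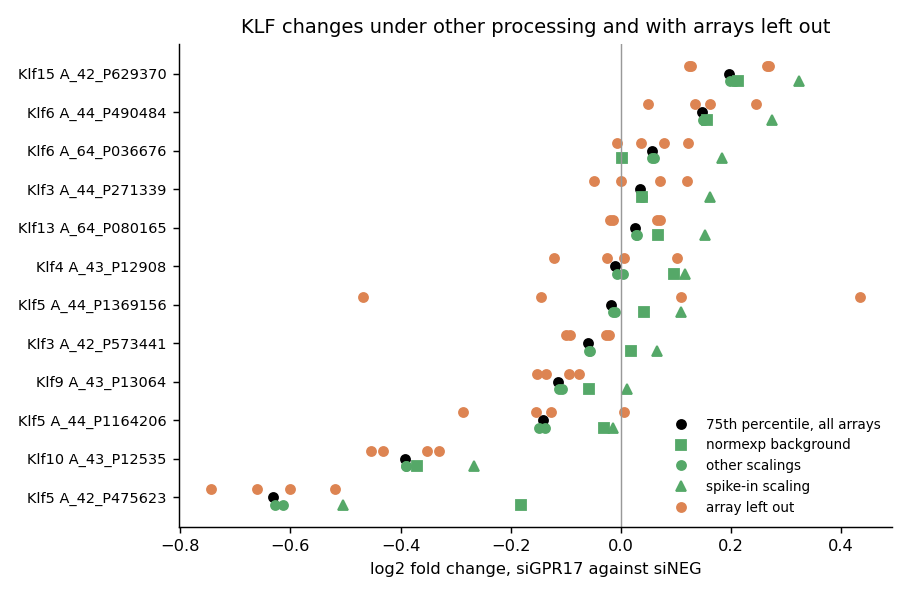
Log2 fold change of each tested KLF probe, siGPR17 against siNEG, with 75th percentile scaling of all arrays (black), with another scaling or background correction (green) and with each array left out in turn (orange). Klf10 and the Klf5 probe A_42_P475623 stay below 0 and Klf15 and the Klf6 probe A_44_P490484 above 0 throughout, and the Klf5 probe A_44_P1369156 lies on either side depending on the array left out.

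The genes around the KLFs were described from 8 lists, of other family members, partners and the signals that induce KLFs. Of their 85 genes, 64 were tested, and 0 passed both thresholds in limma or the methods' t-test (0.0% of all genes in limma). Without adjustment 4 had a p under 0.05 and were higher and 5 were lower, against 7.43% higher and 8.73% lower over all genes by their brightest probe. With the trend and robust option 1 of the 64 passed, Egr1, against 1.5% of all tested probes. With normexp 0 did, against 0.864% of all tested probes.

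Among 7 other KLF genes 5 were tested, with a median log2 fold change of -0.06 and none with an unadjusted p under 0.05 in limma. Klf1, the erythroid founder of the family, had signals of 97.4 and 84.7 in siNEG and of 64.7 and 79.4 in siGPR17 OPCs, or -0.34 ± 0.15 on the log2 scale (adjusted p = 0.346 from limma). Klf11, a relative of Klf10, was at -0.19 (its dimmer probe at 0.12), Klf14 at 0.11 and Klf12 at 0.10. Of the related SP factors, which bind the same GC-rich sites, Sp1, Sp4 and Sp7 were tested. Sp7, known from bone cells, was at 0.48 (adjusted p = 0.334), Sp1, which is found in most cells, at -0.17 and Sp4 at -0.01. The 10 tested cofactors and turnover genes had a median of -0.10, with Fhl3 highest at 0.35 and Ctbp2, the partner of Klf3, lowest at -0.25. None of the 10 had an unadjusted p under 0.05 in limma.

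For the signals that induce Klf9 and Klf15, 9 thyroid hormone genes had a median of 0.01 and 8 glucocorticoid genes a median of -0.20. Rxra, a partner receptor of the thyroid hormone receptors, was at 0.49, the receptor gene Thra at -0.26 and Hr, a direct target, at -0.17. Of the glucocorticoid genes 7 of 8 were below 0, and 5 of 8 under spike-in scaling, where Nr3c1 and Errfi1 lay above it. Zbtb16 was at -0.48, Tsc22d3 at -0.34, Fkbp5 at -0.25 and Per1 at -0.20, and Zbtb16 and Fkbp5 had an unadjusted p under 0.05 in limma. Zbtb16 was dim, with a raw spot median between 1.11 and 1.56 times the local background. Its change lay between -0.64 and -0.10 over the alternatives. Rxra was dim as well, between 1.44 and 1.74 times the local background. Klf15, at 0.20, was on the other side of 0 from Zbtb16, Tsc22d3, Fkbp5 and Per1. Sgk1, the 1 gene of this list above 0, was at 0.17, and Klf9 was at -0.11. A shared signal behind these values was not tested.

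For the signals behind Klf10 and Klf6, 8 TGF-beta genes had a median of -0.07 and 9 genes of the gp130 and STAT3 pathway a median of -0.0043. Tgfb3, a ligand, had signals of 87.8 and 80.1 in siNEG and of 59.5 and 64.4 in siGPR17 OPCs, or -0.44 ± 0.10 on the log2 scale (adjusted p = 0.222 from limma). The receptor Tgfbr2 was at -0.29, the mediator Smad3 at 0.31 and Smad4 at -0.16, and Tgfb3, Tgfbr2 and Smad3 had an unadjusted p under 0.05 in limma. The ligand Tgfb1 was too dim to be tested. Lifr, a receptor chain, was at 0.38, Il6st, which encodes gp130, at -0.29, Lif at -0.25 and Stat3 at -0.16, none with an unadjusted p under 0.05 in limma. The 12 immediate early genes, which rise together with several KLFs after acute stimulation of many cells, had a median of 0.04. Egr1 had 168.5 and 163.0 in siNEG and 225.5 and 279.3 in siGPR17 OPCs, or 0.60 ± 0.14 on the log2 scale (adjusted p = 0.217 from limma). Fosb was at -0.39, with a standard error of 0.64, Junb at -0.30 and Egr2 at -0.17.

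**Figure D4:**
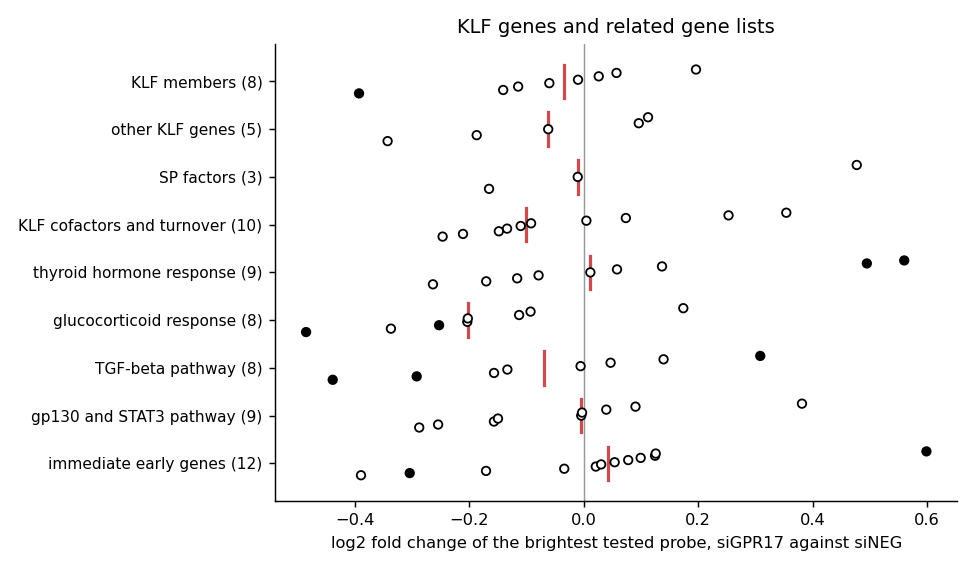
Log2 fold change of the brightest tested probe of each gene, siGPR17 against siNEG, for the 8 KLF genes with a tested probe and for the 8 related lists (number of tested genes in brackets), with a red bar at each median and filled points for an unadjusted p under 0.05 in limma. Klf10 is the only filled point among the KLF genes under 75th percentile scaling, and the medians of the lists lie between -0.20 and 0.04.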

How the data were processed

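Total RNA of 2 siNEG and 2 siGPR17 OPC samples was labelled with Cy3 and hybridised to Agilent one-colour rat arrays by the authors. They deposited, per the file headers, the spot intensity after background correction and detrending by Feature Extraction 10.7.3.1, without normalization between arrays. From these intensities, spots flagged as outliers and control spots were dropped here. Log2 values of the spots of one probe were averaged, and each array was then set to its 75th percentile. Printed signals carry 1 common factor. Probes well above background on at least 2 arrays were tested with limma 3.58.1 in R 4.3.3 (lmFit and eBayes, 1 treatment coefficient, no block). The same fit was also run on data simulated from the means and spreads of these arrays. Probes were named through unversioned RefSeq accessions matched to the GRCr8 gene table, which named 21109 probes. Its coordinates were not used for the arrays. The number of arrays limits the precision. The KLF genes, gene lists and tests were chosen with earlier results of these data known. The text names all KLF probes, Gpr17, the 4 genes of each related list with the largest change by the brightest tested probe, members' background genes, and the 3 genes most like the KLF gene with the largest such change. Alternatives were normexp (offset 50, on spot medians, since spot means were not used here), quantile, median and spike-in scaling, other filters and a floor, trend and robust eBayes, the methods' t-test, the replicate block, and each array left out. Some genes that these rules would also name are not reported here.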

Additional observations from a re-analysis of the deposited data

How the results depend on the processing

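No KLF probe passed both thresholds in limma or the methods' t-test under any of the 14 alternatives, nor when genes were counted by their brightest probe. The count of 2 KLF probes with an unadjusted p under 0.05 was 1 after normexp, where the Klf5 probe A_42_P475623 was no longer under it, and between 1 and 3 with an array left out. Without siGPR17 replicate 1 or without siGPR17 replicate 2 it was 1, and Klf10 was no longer under it. Under spike-in scaling it was 3, with Klf6 and Klf15 in and Klf10 out. Gpr17 passed both thresholds with normexp (-0.66, adjusted p = 0.0221) and with the trend and robust option (-0.78, adjusted p = 0.0152).

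The median of all tested probes moved from 0.01 to 0.14 under spike-in scaling, which raised each KLF change by 0.126. Under it Klf3 A_42_P573441 turned to 0.066, Klf4 to 0.12, Klf5 A_44_P1369156 to 0.11 and Klf9 to 0.012. After normexp Klf3 A_42_P573441 was 0.018, Klf4 0.097 and Klf5 A_44_P1369156 0.041, and with quantile normalization Klf4 was 0.0040. With an array left out, Klf3 A_44_P271339 lay between -0.049 and 0.12, Klf4 between -0.12 and 0.10, Klf5 A_44_P1164206 between -0.29 and 0.0061, Klf5 A_44_P1369156 between -0.47 and 0.43, Klf6 A_64_P036676 between -0.0074 and 0.12, and Klf13 between -0.019 and 0.072. Of 168 such values 18 had the sign turned, and 4 of the 12 probes had none. The causes were not tested. A group left with 1 array was assumed to vary like the other group. Over all tested probes, 1 passed both thresholds in limma, 242 did after normexp, and 420 did when eBayes used a trend and robust option.

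With the replicate number as a block, 0 KLF probes passed both thresholds in limma and 2 had an unadjusted p under 0.05, and Gpr17 stayed at -0.78 with an adjusted p of 0.390. Over all probes the block left 0 past both thresholds. The labels give no reason for the numbers to pair samples, and deviations of same-numbered samples correlated at r = -0.065 across probes. Equal numbers shared a row of the slide. Dim probes (Klf2, Klf4 and both dim Klf5 probes) are limited by signal over background. The same limit applies to the probes of Klf12, Rxra, Zbtb16, Lif, Lifr, Fosb, Junb and Tek, and to the dimmer Klf11 probe. Those of Klf1, Sp7, Fhl3 and Aif1 were little brighter, with a raw spot median of at most 2.38 times the local background.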
